A study of Mus musculus with 13 samples.

Results

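The guanylate-binding proteins are large GTPases whose genes are among those most strongly induced by interferons, above all by interferon gamma. The genes described here are the mouse family members *Gbp2*, *Gbp3*, *Gbp4*, *Gbp5*, *Gbp6*, *Gbp7*, *Gbp8*, *Gbp9*, *Gbp10* and *Gbp11*, 10 of the 52550 genes in the count table. They were chosen by family name, with their levels in all 5 groups of the series already known, so their levels and fold changes are given as a description and without p-values. *Gbp2b*, a further family gene that was not among the chosen, is given beside them.

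RNA was sequenced from retinal cells sorted for Thy1.2, a surface protein used to enrich retinal ganglion cells (RGCs), the neurons whose axons form the optic nerve. The adult dataset held 2 libraries labelled AAV2-Cre and 3 labelled AAV2-GFP. *Kdm6a*, also called UTX, encodes a histone H3 lysine 27 demethylase. The adult mice received a virus in the eye and an optic nerve crush, and cells were taken 3 days after the injury. The labels give the genotype of the AAV2-Cre group as UTX knockout and that of the AAV2-GFP group as GFP; the study describes floxed Kdm6a f/f mice under both viruses, but in places calls the AAV2-GFP mice wild type. AAV2-Cre carries the recombinase that removes exon 3 of *Kdm6a*, and AAV2-GFP carries a fluorescent protein and no recombinase. The Cre comes from the virus and not from a transgene, so which of the sorted cells carried it depends on which cells the virus reached. The labels give the age of these mice as P42 (postnatal day 42), while the methods describe adults injected some weeks after birth and crushed later. The development dataset held 3 libraries from wild-type mice at P1, 3 at P14 and 2 at P21, with no injury and no virus. Whether a library came from 1 animal or from pooled animals is not given in the sources used here, so the tests measure the spread between these libraries, which may be partly technical.

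Guanylate-binding proteins belong to the dynamin superfamily. In infected cells they assemble on the membranes of bacteria and of the vacuoles that hold parasites, break these membranes open, and help caspase-11 and the inflammasomes to sense what is released. In mice, Gbp2, Gbp5 and Gbp2b carry a lipid-modified tail that anchors them to membranes. Promoters of interferon-induced genes are known for a pair of short elements, the gamma-activated site (GAS) and the interferon-stimulated response element (ISRE), the second of which is bound by interferon regulatory factors. Neurons at rest are known to express little of the family, and microglia, macrophages and endothelial cells are known to respond to interferon.

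The genes lie in 2 clusters. In GENCODE M21 on GRCm38, *Gbp5*, *Gbp7*, *Gbp3*, *Gbp2b* and *Gbp2* follow each other on the plus strand over 144 kb (chr3:142493978-142638008). *Gbp8*, *Gbp9*, *Gbp4*, *Gbp10*, *Gbp6* and *Gbp11* lie on the minus strand over 332 kb (chr5:105014150-105346472). *Gbp11* is annotated as a polymorphic pseudogene, a gene that is intact in some mouse strains and disrupted in others. The other 9 members are annotated as protein coding.

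Promoter windows of RefSeq (GRCm38.p6), which run from 250 bases before to 50 bases after a start site, were matched for *Gbp2*, *Gbp3*, *Gbp5* and *Gbp7* and for *Gbp2b*, with 6 windows in all because *Gbp3* has 2 start sites. The promoters are shown because all 5 genes hold the ISRE core, searched as GAAANNGAAA on both strands, close to a start site. Each sequence below begins at the upstream end of its window on the plus strand. It stops 30 bases after the last core, or just before the start site where that comes first, as for *Gbp3*. The capitals mark the ISRE core, which in every case reads on the opposite strand.
Gbp2, chr3:142620413-142620643: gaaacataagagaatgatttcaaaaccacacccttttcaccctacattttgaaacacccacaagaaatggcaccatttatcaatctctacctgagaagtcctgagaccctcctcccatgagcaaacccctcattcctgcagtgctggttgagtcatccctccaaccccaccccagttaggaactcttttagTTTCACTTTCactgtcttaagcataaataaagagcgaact
Gbp3, chr3:142559794-142560043: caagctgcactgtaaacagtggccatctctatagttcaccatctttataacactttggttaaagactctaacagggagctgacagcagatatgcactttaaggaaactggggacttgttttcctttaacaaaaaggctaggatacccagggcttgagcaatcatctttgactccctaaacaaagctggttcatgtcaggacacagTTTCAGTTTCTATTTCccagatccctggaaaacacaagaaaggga
Gbp5, chr3:142496684-142496808: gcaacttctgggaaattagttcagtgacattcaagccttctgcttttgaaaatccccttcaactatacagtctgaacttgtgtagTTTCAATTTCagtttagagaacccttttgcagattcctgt
Gbp7, chr3:142530086-142530322: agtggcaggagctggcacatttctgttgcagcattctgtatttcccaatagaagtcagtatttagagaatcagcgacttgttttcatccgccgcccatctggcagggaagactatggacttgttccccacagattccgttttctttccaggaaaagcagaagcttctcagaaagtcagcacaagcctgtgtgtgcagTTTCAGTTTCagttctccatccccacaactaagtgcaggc
Gbp2b, chr3:142594597-142594749: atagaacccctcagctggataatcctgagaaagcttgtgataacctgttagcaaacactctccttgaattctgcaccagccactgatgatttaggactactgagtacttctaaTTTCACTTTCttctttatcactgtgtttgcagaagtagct
The core lay 59 to 50 bases before the start site of *Gbp2* and 53 to 44 bases before that of *Gbp7*. In *Gbp3* a pair of overlapping matches lay 45 to 36 and 39 to 30 bases before the upstream start site, and the window of the downstream start site held none. *Gbp2b* had it at 137 to 128 bases and *Gbp5* at 165 to 156 bases before the start. Of 32851 promoter windows of the same length, 3.44% held this core. The GAS letters TTCNNNGAA, which read the same on both strands, were found 2 times in the *Gbp5* window (245 to 237 and 52 to 44 bases before the start) and 2 times in the *Gbp7* window (106 to 98 and 87 to 79 bases before the start), where they do not overlap an ISRE core. No such letters were in the windows of *Gbp2*, *Gbp3* or *Gbp2b*, and 8.30% of all windows held them. A match describes letters and does not show that a factor binds there.

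Some members are so alike that their reads are hard to assign, which bears mainly on *Gbp6* and *Gbp10*. They are the closest pair: their coding sequences (GENCODE M21) have 1833 bases each and differ at 30 of them, an identity of 98.4%. The stretch with the densest differences, coding bases 1526 to 1645 counted from the A of the start codon, is shown to let the pair be told apart, with the 12 differing bases in capitals.
Gbp6: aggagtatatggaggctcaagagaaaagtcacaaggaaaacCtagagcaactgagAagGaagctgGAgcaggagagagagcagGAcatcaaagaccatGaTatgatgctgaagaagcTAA
Gbp10: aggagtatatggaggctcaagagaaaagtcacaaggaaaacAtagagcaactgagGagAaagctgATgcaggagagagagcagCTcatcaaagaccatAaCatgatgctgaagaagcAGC
Of all 100-base windows in the transcripts of *Gbp10*, 60.9% also occur in another family gene, as do 37.3% of those of *Gbp6*, and 5.13% or fewer for every other member. *Gbp2* and *Gbp2b* share none. Among the chromosome 5 members, coding identity ran from 89.6% (*Gbp4* and *Gbp9*) to 98.4%, whereas on chromosome 3 the closest pairs were *Gbp2* and *Gbp2b* (82.5%) and *Gbp3* and *Gbp7* (78.3%). An unnamed gene model, *Gm43302*, covers 46.3% of the exon bases of *Gbp10* and 29.0% of those of *Gbp6*, and held 0 to 6 counts per library. Counting any other gene, *Gm43302* included, 73.5% of the *Gbp10* windows and 64.5% of the *Gbp6* windows are shared. How reads that fit several genes were counted is not given in the sources used here, so the values of *Gbp6* and *Gbp10* are uncertain as a split of their sum. If such reads were left out, the sum itself is too low. *Gbp4*, *Gbp8* and *Gbp9* share 121 or fewer exon bases by annotation.

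Total counts were 13637602 to 16070720 per adult library and 30357454 to 38812917 per development library. As a check on the labels, *Kdm6a* had 111 and 113 CPM (counts scaled to library size) in the libraries labelled AAV2-Cre, against 116, 102 and 123 CPM in the libraries labelled AAV2-GFP (log2 fold change -0.02, SE 0.15, edgeR adjusted p = 0.963). The deletion removes exon 3 alone, so a count over the whole gene does not check it, and the groups are called below by their labels. By real-time PCR on purified RGCs, the study reports less *Kdm6a* mRNA in floxed mice given AAV2-Cre than in those given AAV2-GFP. It also reports less Kdm6a protein in RGCs by staining. Neither is a value of these libraries. Markers of RGCs took 0.0375% to 0.0453% of counts in AAV2-Cre and 0.0392% to 0.0471% in AAV2-GFP, with *Pou4f2* at 0 counts in both libraries labelled AAV2-Cre. Rod markers took 1.43% to 3.03% in AAV2-Cre and 3.18% to 3.81% in AAV2-GFP, and microglia and macrophage markers 0.856% to 1.02% and 0.627% to 0.949%. The RGC markers took 1.14% to 1.24% of counts at P1, 0.146% to 0.169% at P14 and 0.0524% to 0.100% at P21. In every adult library the RGC markers took a smaller share than the rod or the microglia markers, so RGC is used here for the sort and not as a measured purity. In such bulk samples, fewer cells of a type and less RNA per cell cannot be told apart.

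Most of the family was higher in the libraries labelled AAV2-Cre than in those labelled AAV2-GFP. The summed level of the 10 genes was 1689 and 1684 CPM in AAV2-Cre and 508, 469 and 803 CPM in AAV2-GFP. In edgeR's quasi-likelihood test with Benjamini-Hochberg adjustment over 18395 genes, 8 of the 10 members were called higher and 0 lower (0 also at an unadjusted p under 0.05, and 0 by DESeq2), where 1.33% of all genes were called higher and 0.294% lower. The members' median log2 fold change was 1.57 (range 1.31 to 2.90), and that of all genes was -0.03. In all 10 of 10 members both AAV2-Cre libraries lay above all 3 AAV2-GFP libraries, as did 17.9% of all genes tested. Since the members were chosen with these libraries known, nothing is read from these counts.

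**Figure D1:**
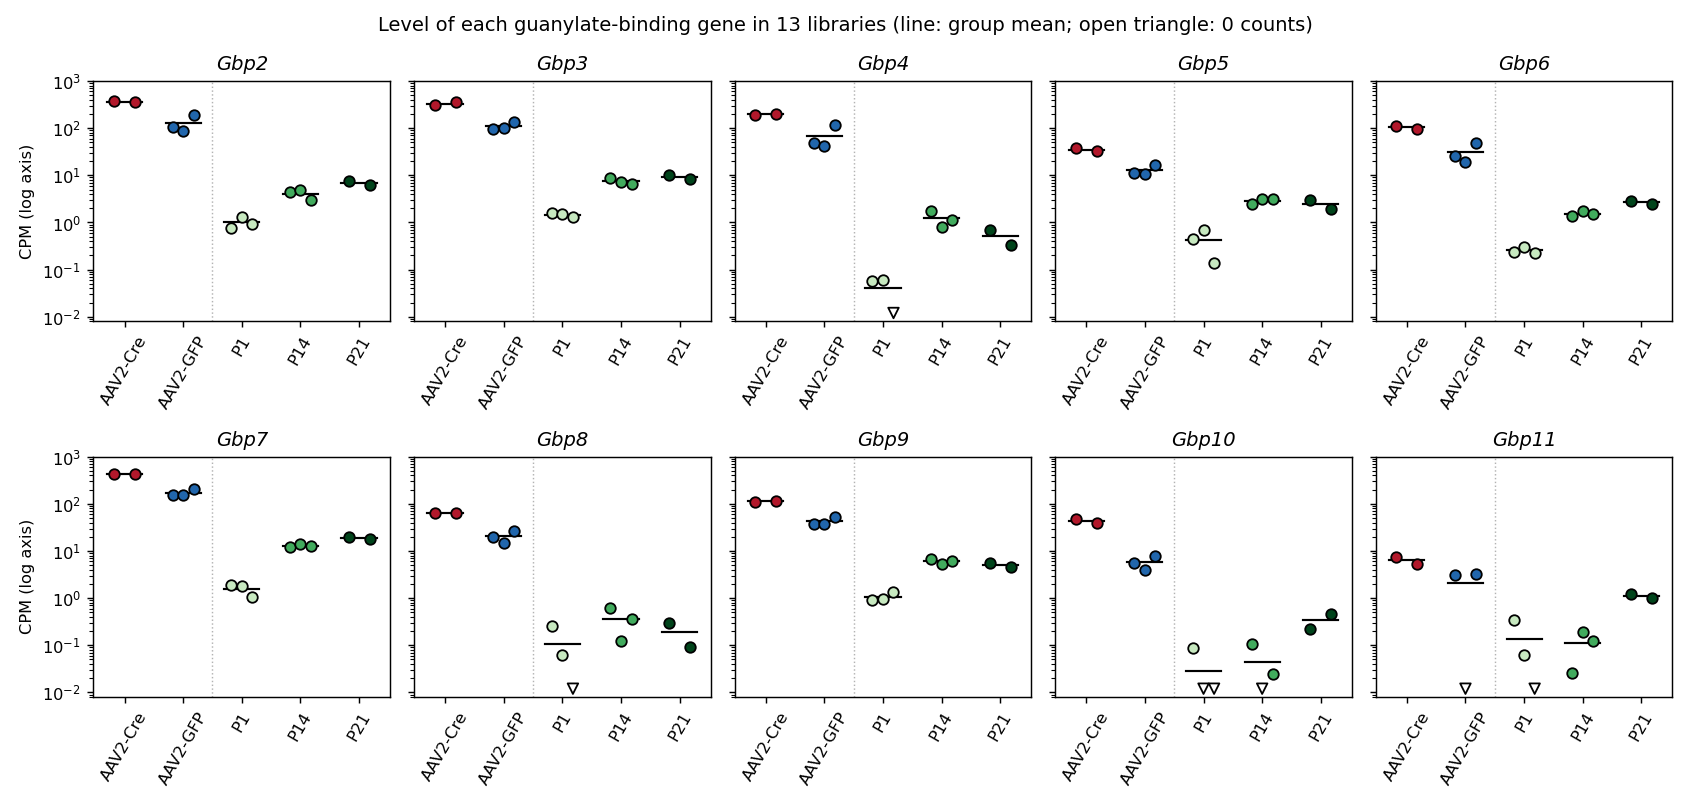
Level of each member in CPM (log axis) in each of the 13 libraries; a point is a library, a line a group mean and an open triangle a library with 0 counts. The AAV2-Cre points lie above the AAV2-GFP points in all 10 panels, and the development libraries, from 0 counts to 19.7 CPM, lie below all adult libraries except for *Gbp11*, which had 0 counts in AAV2-GFP replicate 2.

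Among the chromosome 3 genes, *Gbp2* had 374 and 354 CPM in AAV2-Cre, against 106, 86.3 and 194 CPM in AAV2-GFP (log2 fold change 1.50, SE 0.30). *Gbp2* acts on vacuoles of the parasite Toxoplasma. The AAV2-GFP library of replicate 3 was the highest of its group, and the groups did not overlap. *Gbp3* had 308 and 354 CPM in AAV2-Cre and 94.7, 103 and 133 CPM in AAV2-GFP (1.58, SE 0.18). *Gbp7*, which in mouse macrophages brings oxidase subunits to vacuoles with bacteria, had 429 and 421 CPM in AAV2-Cre and 157, 153 and 206 CPM in AAV2-GFP. Its log2 fold change of 1.31 (SE 0.17) was the smallest of the family. *Gbp5*, which promotes assembly of the NLRP3 inflammasome, had the lowest level per kb of exon of the 4, with 37.5 and 32.7 CPM in AAV2-Cre and 11.3, 10.5 and 16.4 CPM in AAV2-GFP (1.46, SE 0.26). All 4 were called higher.

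Of the 6 genes of the chromosome 5 cluster, 4 were called higher. *Gbp6* had 114 and 96.2 CPM in AAV2-Cre, against 25.8, 19.1 and 48.4 CPM in AAV2-GFP (log2 fold change 1.75, SE 0.34). Its close copy *Gbp10* had 48.2 and 38.6 CPM in AAV2-Cre and 5.44, 3.98 and 7.99 CPM in AAV2-GFP, a log2 fold change of 2.90 (SE 0.31). This was the largest of the family, 7.47-fold, and it rests on the split of reads between *Gbp6* and *Gbp10* described above. Summed over the pair, which does not depend on that split, the level was 162 and 135 CPM in AAV2-Cre and 31.3, 23.0 and 56.4 CPM in AAV2-GFP. Reads shared with *Gm43302* could still be missing from this sum. *Gbp10* took 29.8% and 28.6% of the pair in AAV2-Cre and 17.4%, 17.3% and 14.2% in AAV2-GFP. Knockdown of either gene has been linked to greater growth of bacteria in mouse macrophages.

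*Gbp9* had 112 and 117 CPM in AAV2-Cre and 37.1, 37.5 and 53.1 CPM in AAV2-GFP (log2 fold change 1.43, SE 0.20), and was called higher. *Gbp8*, also called higher, had 65.5 and 63.0 CPM in AAV2-Cre, against 20.3, 14.6 and 26.5 CPM in AAV2-GFP (1.65, SE 0.25). *Gbp4* had 194 and 203 CPM in AAV2-Cre and 47.9, 40.9 and 114 CPM in AAV2-GFP (1.55, SE 0.38). It was not called, and the library of AAV2-GFP replicate 3 was the highest of its group, far above the other AAV2-GFP libraries. *Gbp11*, the polymorphic pseudogene, was the lowest member per kb of exon in both adult groups, with 7.48 and 5.20 CPM in AAV2-Cre and 3.12, 0 and 3.18 CPM in AAV2-GFP (1.59, SE 1.07), and was not called. The *Gbp11* count was 0 in AAV2-GFP replicate 2 and 43 and 51 in the other libraries of that group.

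*Gbp2b*, the family gene next to *Gbp2*, had 214 and 348 CPM in AAV2-Cre and 78.2, 61.5 and 135 CPM in AAV2-GFP. Its log2 fold change of 1.62 (SE 0.32) was close to that of the members, and it missed the threshold by edgeR (adjusted p = 0.0512).

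The calls in this comparison rest on few libraries. Without AAV2-Cre replicate 1 or without AAV2-Cre replicate 2, 0 members were called (the median log2 fold change was then 1.56 and 1.55), the lone library being taken to vary like the other group. Without AAV2-GFP replicate 1, 4 members were called, and without AAV2-GFP replicate 2, 3 were. Without AAV2-GFP replicate 3, 9 were called and the median was 1.92. AAV2-GFP replicate 3 was the highest library of its group in 10 of 10 members, and its summed level of 803 CPM was nearest to that of AAV2-Cre.

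**Figure D2:**
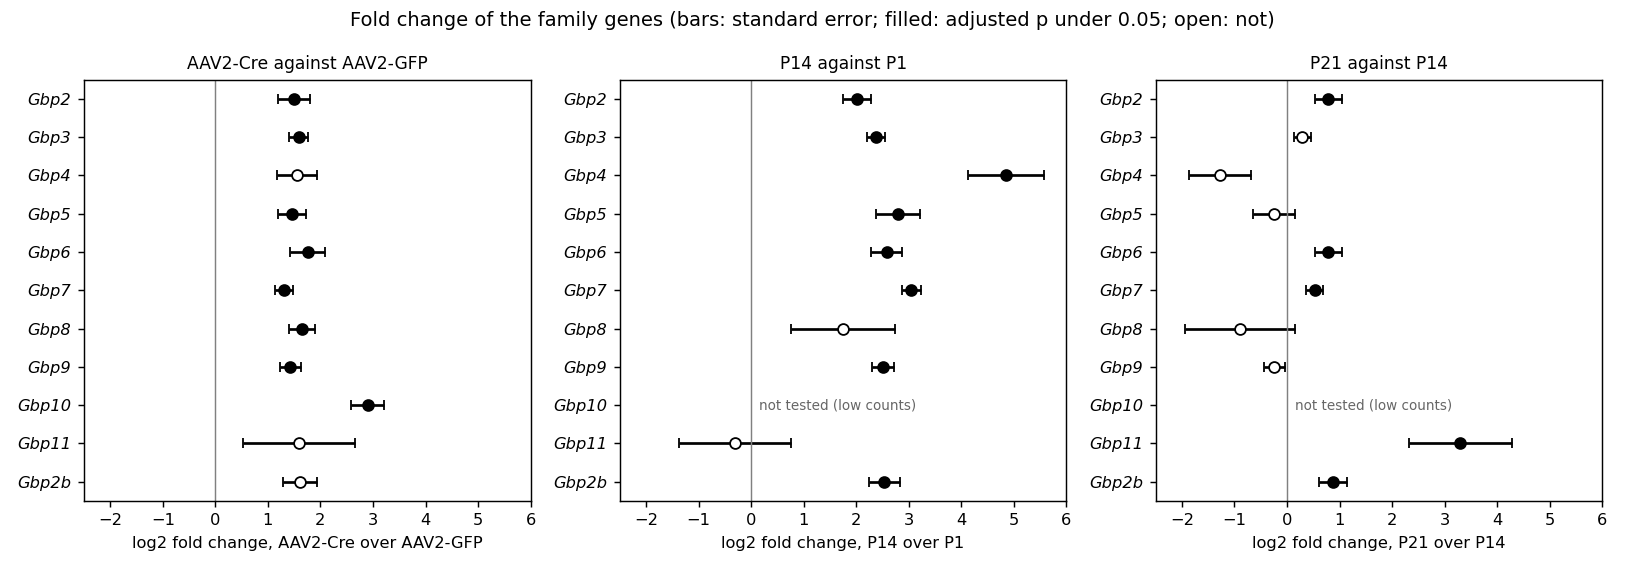
Log2 fold change of the 10 members and *Gbp2b* in the comparisons AAV2-Cre over AAV2-GFP, P14 over P1 and P21 over P14 (bars, standard error; filled, adjusted p under 0.05 over all genes tested by edgeR; open, not). The members sit between 1.31 and 2.90 in the AAV2-Cre comparison and spread from -1.27 to 3.30 between P21 and P14.

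The summed levels of blood cell markers were also higher in AAV2-Cre, although few single markers were called. Over all genes tested, the share called was 1.33% higher and 0.294% lower. T and NK cell markers took 0.178% and 0.110% of counts in AAV2-Cre and 0.0501%, 0.0868% and 0.0904% in AAV2-GFP. None of the 21 was at 0 in either group, their median log2 fold change was 1.01 (range 0.33 to 1.58), and 0 were called by edgeR (18 were higher at an unadjusted p under 0.05, and 12 by DESeq2). B cell markers took 0.121% and 0.0630% in AAV2-Cre and 0.0227%, 0.0514% and 0.0278% in AAV2-GFP, with 2 of 12 called higher and none at 0. Monocyte and neutrophil markers took 0.0735% and 0.0843% in AAV2-Cre and 0.0472%, 0.0415% and 0.0539% in AAV2-GFP. Of these, 2 of the 8 tested were called higher (log2 fold changes from -1.93 to 2.13), *Elane* and *Mpo* were at 0 in both groups and *Ly6g* in AAV2-GFP. These 3 sums did not overlap between the groups. Astrocyte markers took 0.0167% and 0.0263% in AAV2-Cre and 0.00607%, 0.0105% and 0.0106% in AAV2-GFP, also without overlap, with 1 of 6 called higher and *Pax2* at 0 in both groups. Microglia and macrophage markers overlapped, at 0.856% and 1.02% in AAV2-Cre and 0.627%, 0.949% and 0.874% in AAV2-GFP, with 1 of 17 tested called higher, and endothelial markers took 0.0238% and 0.0336% in AAV2-Cre and 0.0156% to 0.0316% in AAV2-GFP, with *Erg* at 0 in AAV2-Cre. Rod markers went the other way without overlap, at 1.43% and 3.03% in AAV2-Cre and 3.18% to 3.81% in AAV2-GFP. Of these 16, 0 were called by edgeR (7 were lower at an unadjusted p under 0.05, and 2 by DESeq2). The part of all these cells in the result was not tested. Within AAV2-GFP, the highest library differed by list: replicate 3 for the members, T and NK cells and monocytes, and replicate 2 for B cells and microglia.

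**Figure D3:**
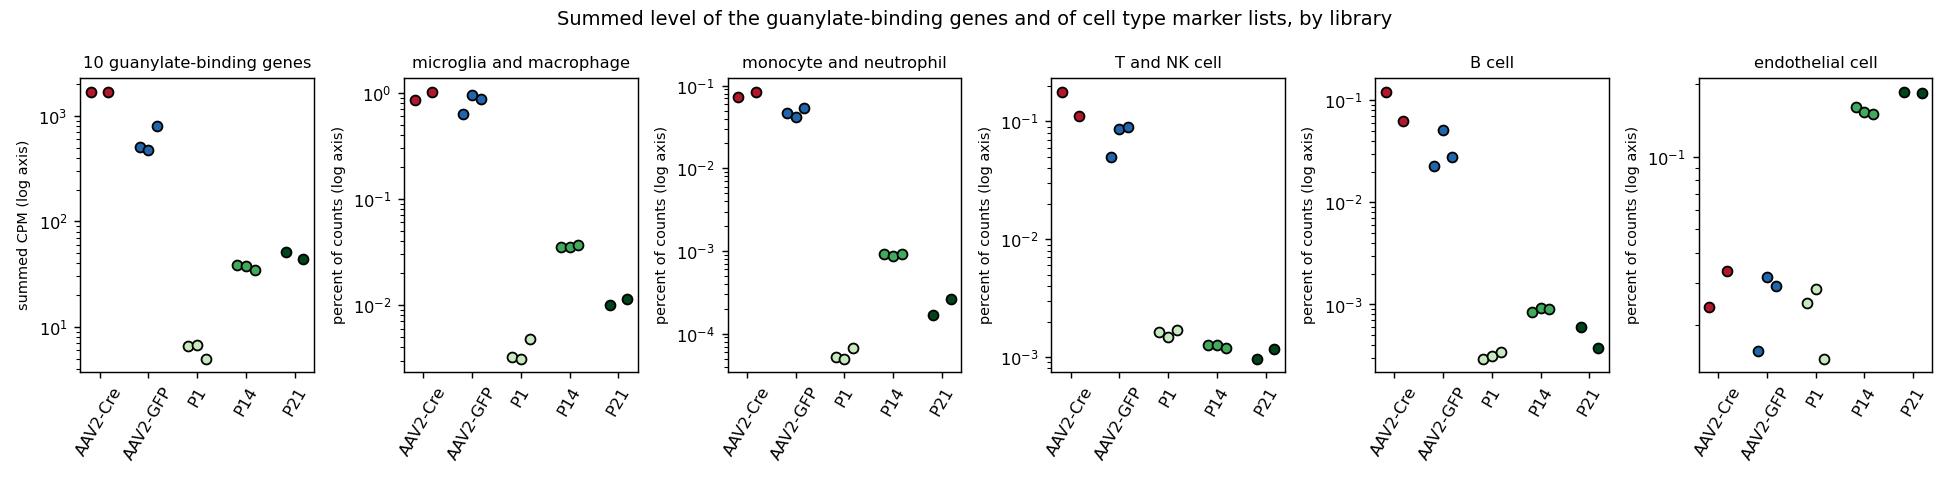
Summed level of the 10 members (CPM, log axis) beside the share of counts in marker lists of microglia and macrophages, monocytes and neutrophils, T and NK cells, B cells and endothelial cells (percent, log axes), 1 point per library. The sums of the members (1689 and 1684 against 469 to 803 CPM) and of the T and NK, B cell and monocyte markers are higher in AAV2-Cre than in AAV2-GFP without overlap, and those of microglia and endothelial cells overlap.

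The other genes of interferon signaling were read from lists by role. Of the ligands, *Ifng* had 15.7 and 8.29 CPM in AAV2-Cre and 4.64, 6.55 and 17.9 CPM in AAV2-GFP, so the groups overlapped, and AAV2-GFP replicate 3 was the highest of the 5 libraries. *Ifnb1*, *Ifna2*, *Ifna4*, *Ifne*, *Ifnl2* and *Ifnl3* had 0 counts in all 5 adult libraries. Of the 7 ligand and receptor genes tested, 0 were called by edgeR (3 were higher at an unadjusted p under 0.05, and 2 by DESeq2). *Ifngr1*, which binds interferon gamma, had 961 and 938 CPM in AAV2-Cre and 608, 738 and 738 CPM in AAV2-GFP (log2 fold change 0.45, SE 0.15, adjusted p = 0.174 by edgeR).

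Downstream of the receptors, 6 of 16 kinases and transcription factors were called higher and 0 lower (0 at an unadjusted p and 0 by DESeq2). The shares of all genes tested were 1.33% higher and 0.294% lower. Among them were *Irf9* (log2 fold change 1.28, SE 0.14), *Irf8* (1.15, SE 0.14), *Irf7* (1.93, SE 0.28), *Stat2* (1.07, SE 0.18) and *Irf1* (1.47, SE 0.26), most of them interferon regulatory factors. *Irf1* had 376 and 303 CPM in AAV2-Cre, against 105, 91.1 and 172 CPM in AAV2-GFP. The kinases *Jak1*, *Jak2* and *Tyk2* were not called (log2 fold changes 0.43, 0.59 and 0.16). In the list of negative regulators, 3 of 8 were called higher: *Usp18* (1.88, SE 0.21), *Ptpn6* (0.89, SE 0.15), a phosphatase abundant in blood cells, and *Isg15* (2.60, SE 0.47). Whether *Isg15* acts as a negative regulator in these mouse cells was not tested. *Socs1*, which blocks JAK kinases, was at 1.11 (SE 0.35) and was not called.

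In AAV2-Cre against AAV2-GFP, 1.33% of all genes tested were called higher and 0.294% lower. The immunity-related GTPases, which load onto parasite vacuoles together with guanylate-binding proteins, had 5 of 9 tested called higher. *Igtp* (log2 fold change 1.80, SE 0.24), *Ifi47* (1.81, SE 0.26), *Irgm1* (1.95, SE 0.29) and *Tgtp1* (2.27, SE 0.34) were among them. Type I interferon antiviral genes had 15 of 20 called higher, and the 4 with the smallest p were *Ifit1* at 3.18 (SE 0.16), *Ifit2* at 1.82 (SE 0.16), *Oas3* at 1.95 (SE 0.19) and *Rtp4* at 1.91 (SE 0.20). Of 20 chemokine and antigen presentation genes induced by interferon gamma, 6 were called higher, among them *Cxcl10* (2.28, SE 0.31), *Psmb10* (1.33, SE 0.20), *Psmb9* (1.23, SE 0.19) and *B2m* (1.01, SE 0.17). Median log2 fold changes were 1.81 for the GTPases, 1.86 for the antiviral genes and 1.00 for the chemokine and antigen presentation genes. Over all pathway lists 36 genes were called higher or lower, but 2 without AAV2-Cre replicate 1, 1 without AAV2-Cre replicate 2, 23 without AAV2-GFP replicate 1 and 18 without AAV2-GFP replicate 2.

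Genes that guanylate-binding proteins work with, but that are not all interferon targets, mostly did not pass the test. Of 10 autophagy conjugation genes, which direct guanylate-binding proteins to vacuoles, 0 were called (0 at an unadjusted p under 0.05 by edgeR, and 0 by DESeq2), with log2 fold changes from -0.18 to 0.48. Of 10 inflammasome genes, *Il1b* was called higher by edgeR (1.08, SE 0.18), while 4 were higher at an unadjusted p under 0.05, and 2 by DESeq2. *Casp4*, the mouse caspase-11 gene, was at 1.05 (SE 0.26), *Gsdmd* at 0.61 (SE 0.22) and *Casp1* at 0.81 (SE 0.31). The 5 prenylation enzymes, which attach the lipid tail, had 0 calls by edgeR (2 were lower at an unadjusted p under 0.05, and 1 by DESeq2); *Fntb* was at -1.16 (SE 0.31). The atlastins *Atl1*, *Atl2* and *Atl3*, related GTPases that shape the endoplasmic reticulum and are not interferon targets, were at 0.20, 0.06 and -0.00, with 0 calls (0 at an unadjusted p under 0.05, and 0 by DESeq2).

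**Figure D4:**
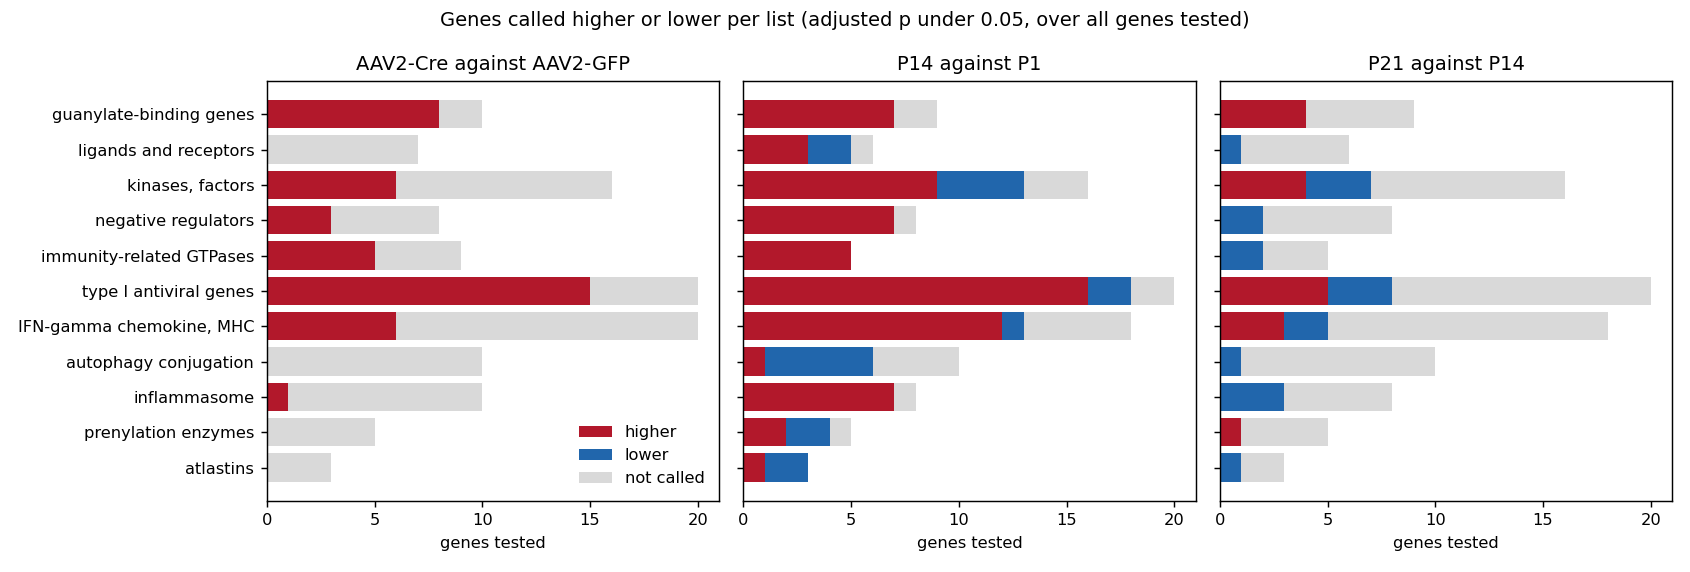
Number of genes called higher, called lower or not called (edgeR, adjusted p under 0.05 over all genes) in each list, for AAV2-Cre against AAV2-GFP, P14 against P1 and P21 against P14. In the AAV2-Cre panel calls stand in the lists of interferon targets and signal factors (15 of 20 antiviral genes, 5 of 9 immunity-related GTPases), and 0 in the autophagy, prenylation and atlastin lists.

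During development the family was low at P1 and higher at P14. The summed level was 6.52, 6.74 and 4.99 CPM at P1, 38.4, 37.6 and 34.8 CPM at P14, and 51.4 and 43.5 CPM at P21. Of the 9 members that passed the low-count filter, 7 were called higher at P14 than at P1 and 0 lower (0 at an unadjusted p under 0.05 and 0 by DESeq2), where 33.6% of all 20890 genes tested were called higher and 33.6% lower. Their median log2 fold change was 2.51 (all genes, -0.01). In 7 of the 9 members all P14 libraries lay above all P1 libraries, as did 36.8% of all genes. *Gbp10*, with 0 to 15 counts per library, did not pass the filter. *Gbp4* passed it through P14 and P21, since it had 2, 2 and 0 counts at P1, and so did *Gbp6*, with 8, 10 and 8 counts at P1. *Gbp8* passed through P14 and *Gbp11* through P21. The calls of *Gbp4* and *Gbp6* at P14 against P1 thus follow in part from the filter. These counts are a description too, as the P1, P14 and P21 levels were known when the members were chosen.

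*Gbp7*, the highest member per kb of exon at P14 and P21, stood at 1.86, 1.82 and 1.07 CPM at P1, 12.3, 14.3 and 12.6 CPM at P14, and 19.7 and 18.0 CPM at P21. It rose by a log2 fold change of 3.05 (SE 0.18) between P1 and P14 and by a further 0.53 (SE 0.16) between P14 and P21. *Gbp3* had 1.57, 1.48 and 1.30 CPM at P1, 8.66, 7.18 and 6.69 CPM at P14, and 10.1 and 8.29 CPM at P21 (2.37, SE 0.17, and 0.29, SE 0.16). The P14 and P21 libraries of *Gbp3* overlapped, and the later step was not called. *Gbp2* had 0.757, 1.32 and 0.931 CPM at P1, 4.36, 4.85 and 3.02 CPM at P14, and 7.74 and 6.29 CPM at P21 (2.02, SE 0.26, and 0.79, SE 0.25). Both steps were called. *Gbp5* had 0.437, 0.677 and 0.141 CPM at P1, 2.44, 3.15 and 3.11 CPM at P14, and 2.93 and 1.94 CPM at P21 (2.80, SE 0.42, and -0.25, SE 0.39), so it was called between P1 and P14 alone.

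On chromosome 5, *Gbp9* was the highest member per kb of exon at all 3 ages, with 0.903, 0.954 and 1.33 CPM at P1, 6.72, 5.29 and 6.15 CPM at P14, and 5.62 and 4.62 CPM at P21 (2.51, SE 0.20, and -0.24, SE 0.20). *Gbp6* had 0.233, 0.308 and 0.226 CPM at P1, 1.39, 1.73 and 1.50 CPM at P14, and 2.85 and 2.46 CPM at P21, and was called at both steps (2.58, SE 0.29, and 0.79, SE 0.26). *Gbp4* had 0.0583, 0.0616 and 0 CPM at P1, 1.78, 0.787 and 1.13 CPM at P14, and 0.679 and 0.334 CPM at P21. Its log2 fold change of 4.86 (SE 0.72) between P1 and P14 was the largest of the family at that step but rests on 4 counts in all at P1, while both P21 libraries lay below all P14 libraries (-1.27, SE 0.59, not called). *Gbp8* stayed at or under 0.603 CPM in all 8 libraries and was called at neither step. *Gbp11* was low until P21: it had 12, 2 and 0 counts at P1 and 1, 6 and 5 at P14, and 45 and 33 counts at P21 (log2 fold change at the later step 3.30, SE 0.98). *Gbp10* had 3, 0 and 0 counts at P1, 4, 0 and 1 at P14, and 8 and 15 at P21.

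Between P21 and P14, 4 of the 9 members tested (*Gbp2*, *Gbp6*, *Gbp7* and *Gbp11*) were called higher and 0 lower (0 at an unadjusted p under 0.05 and 0 by DESeq2), where 14.6% of all genes were called higher and 19.3% lower. *Gbp11* passed the low-count filter only through P21, where it was high, so its call follows in part from the filter. The median log2 fold change was 0.29 (all genes, -0.00), and 4 members lay above without overlap and 1 below, against 29.0% and 30.5% of all genes. These calls rest on single libraries: 0 were left without P14 replicate 1, P14 replicate 3, P21 replicate 1 or P21 replicate 2, and 1 without P14 replicate 2. *Gbp2b* was called at both steps (P14 over P1 2.53, SE 0.30; P21 over P14 0.88, SE 0.27, adjusted p = 0.0312 by edgeR).

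Other cells' markers moved with these ages as well. Microglia and macrophage markers took 0.00312% to 0.00477% of counts at P1, 0.0350% to 0.0366% at P14 and 0.00992% to 0.0114% at P21. All 18 were called higher at P14 than at P1, and 15 of 18 lower at P21 than at P14. Endothelial markers took 0.0145% to 0.0282% at P1, 0.151% to 0.161% at P14 and 0.183% to 0.186% at P21, with 15 of 15 called higher at P14 than at P1 and 9 of 15 lower at P21 than at P14. Most of their P21 sum came from *Kdr* (36960 and 34086 counts) and *Flt1* (24150 and 21624 counts), named after their values were seen. The list's median log2 fold change at P21 against P14 was -1.46, so the rise of the sum does not describe most of its genes. Pericyte markers took 0.00947% to 0.0335% at P1, 0.416% to 0.463% at P14 and 0.0602% to 0.0899% at P21, with 10 of 10 called higher and then 10 of 10 lower. Müller glia markers took 0.203% to 0.544% at P1, 2.04% to 2.15% at P14 and 3.67% to 3.86% at P21, with 11 of 11 called higher at P14 than at P1. None of the markers of these 4 cell types was at 0 in any age group. The part of these cells in the family's levels was not tested.

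By role, the interferon lists at P14 against P1 had 16 of 20 antiviral genes, 5 of 5 immunity-related GTPases, 12 of 18 chemokine and antigen presentation genes, 9 of 16 kinases and factors and 7 of 8 inflammasome genes called higher, with 2, 0, 1, 4 and 0 called lower (of the GTPases and inflammasome genes, 0 were lower at an unadjusted p under 0.05, and 0 by DESeq2). Of all genes tested, 33.6% were called higher and 33.6% lower at this step. Some genes of these lists passed the low-count filter only through P14, where they were high, so their calls follow in part from the filter. Among them were *Ifi47* (2 counts in each P1 library, 30 to 39 at P14), *Casp1* and *Il1b*. *Irf1* rose by a log2 fold change of 2.78 (SE 0.24), while *Stat2* fell by 0.66 (SE 0.05) and *Irf9* did not pass (0.04, SE 0.06). The receptor genes went both ways, *Ifngr1* up by 1.18 (SE 0.08) and *Ifngr2* down, at -1.34 (SE 0.07). *Ifng* had 2 counts or fewer in every development library. Of the autophagy genes 1 of 10 was called higher and 5 lower, and *Atl1*, the neuronal atlastin, fell by 2.40 (SE 0.08).

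At P21 against P14 the same lists were mixed: antiviral genes had 5 called higher and 3 lower of 20, and the GTPases 2 lower of 5 and 0 higher (0 at an unadjusted p and 0 by DESeq2). Of all genes tested, 14.6% were called higher and 19.3% lower, so nothing particular to the antiviral list is read from its counts. The GTPases called lower were *Iigp1* (-3.83, SE 0.81) and *Ifi47* (-1.68, SE 0.54), of which *Iigp1* is named after its values were seen. Both passed the low-count filter only through P14, where they were high (55 to 82 and 30 to 39 counts). Their calls at this step and at P14 against P1 thus follow in part from the filter. *Ifit1* (1.28, SE 0.44) and *Ifit2* (1.14, SE 0.09) rose, and *Oas3* fell by 1.75 (SE 0.42).

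Per length of exon, the order of the members differed between adults and development. In AAV2-Cre, mean levels in CPM per kb of exon were 145 ± 5.63 for *Gbp2*, 101 ± 9.92 for *Gbp3* and 75.7 ± 1.01 for *Gbp7* (SD, n = 2), with *Gbp2b* at 99.4 ± 33.6. The next were *Gbp4* at 26.5 ± 0.890, *Gbp9* at 22.1 ± 0.648, *Gbp8* at 18.7 ± 0.497, *Gbp6* at 17.6 ± 2.09 and *Gbp10* at 11.2 ± 1.76. *Gbp5* (5.29 ± 0.506) and *Gbp11* (2.36 ± 0.597) closed the order. These SDs hold the spread between libraries. They do not test the order of members, which were measured in the same libraries.

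In AAV2-GFP the order was the same apart from *Gbp5* (1.92 ± 0.482) and *Gbp10* (1.50 ± 0.524, SD, n = 3), which changed places. *Gbp2* stood at 51.2 ± 22.8, *Gbp3* at 33.8 ± 6.15 and *Gbp7* at 30.6 ± 5.26 CPM per kb. Whether these members differ was not tested.

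In development *Gbp7*, *Gbp3* and *Gbp2* again led. At P1 they had 0.282 ± 0.0791, 0.444 ± 0.0427 and 0.399 ± 0.115 CPM per kb. At P14 the levels were 2.33 ± 0.192, 2.30 ± 0.313 and 1.62 ± 0.377 CPM per kb, and at P21 (n = 2) 3.36 ± 0.208, 2.82 ± 0.392 and 2.79 ± 0.409. *Gbp9* followed among the members (0.990 ± 0.137 at P21), whereas *Gbp4*, the next in adults, had 0.0676 ± 0.0325 CPM per kb at P21, below *Gbp5*, *Gbp6*, *Gbp11* and *Gbp10*. *Gbp4* made up 11.5% and 12.1% of the summed CPM of the 10 members in AAV2-Cre and 9.43%, 8.72% and 14.2% in AAV2-GFP, and 1.32% and 0.768% at P21.

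**Figure D5:**
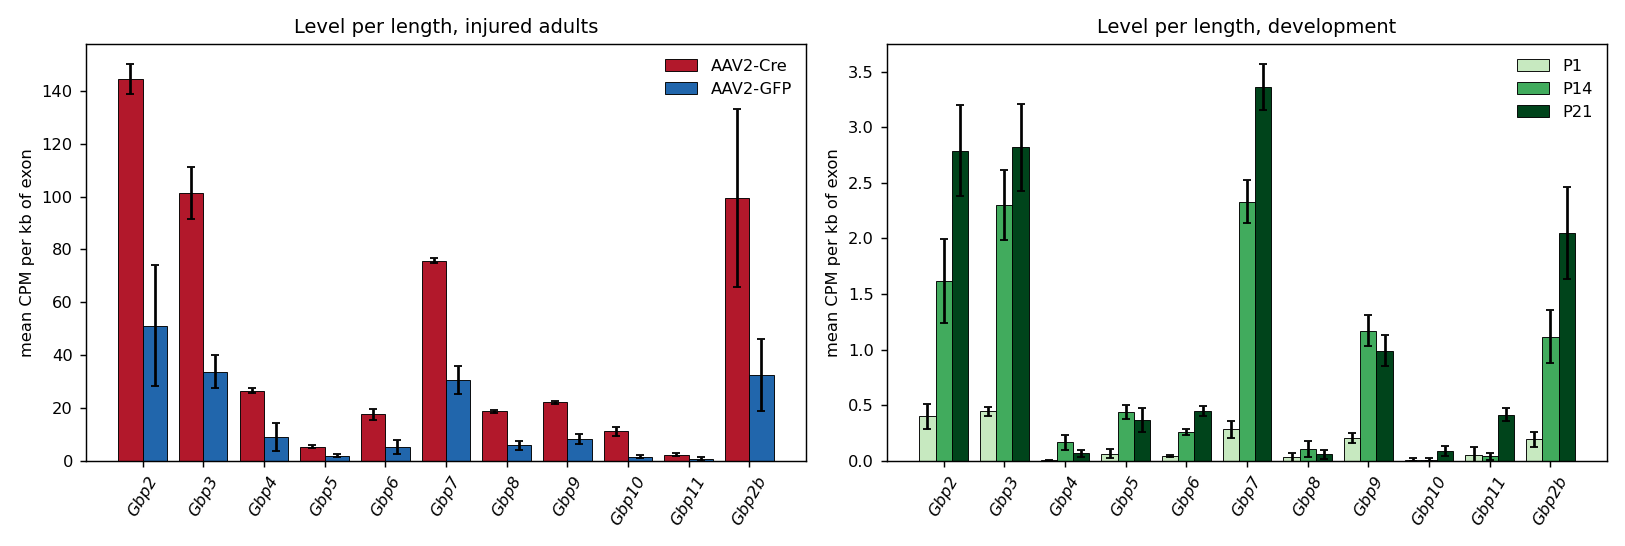
Mean level of the 10 members and *Gbp2b* in CPM per kb of exon (bars, SD over 2 or 3 libraries), adults at left and development at right on separate axes. *Gbp2* is the tallest bar in both adult groups (145 and 51.2) and *Gbp7* at P14 and P21 (2.33 and 3.36).

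Of the 10 members, all but *Gbp11* had every adult library above every development library. How many of all genes did so was not counted, so nothing about the family is read from this. *Gbp11* had 3.12, 0 and 3.18 CPM in AAV2-GFP and 1.22 and 1.00 CPM at P21, so these groups overlapped. *Gbp2*, for example, lay between 86.3 and 374 CPM in the adult libraries and between 0.757 and 7.74 CPM in the development libraries. The lowest summed level of an adult library was 469 CPM and the highest of a development library 51.4 CPM. Dataset, age, genotype, virus and injury differ between them and cannot be told apart, and CPM were scaled within each dataset, so no test was made. Scaled over all 13 libraries together, *Gbp2* lay between 81.3 and 370 CPM in adults and between 0.765 and 7.79 CPM in development.

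Across the 13 libraries, each gene's log2 CPM was centred on the mean of its dataset and set against the mean of the 9 members that passed the filter in both datasets. Of 13860 genes outside the family, the 8 most like it were *Igtp* (Pearson r 0.986), *Gramd3* (0.983), *Nxn* (0.981), *Irf1* (0.980), *Rnf213* (0.978), *Pgghg* (0.977), *Irgm2* (0.977) and *Rtp4* (0.975). Over the 5 adult libraries alone these values ran from 0.947 (*Irgm2*) to 0.986 (*Gramd3*), and over the 8 development libraries alone from 0.983 to 0.995. *Igtp* had 321 and 338 CPM in AAV2-Cre and 76.4, 76.1 and 131 CPM in AAV2-GFP, with AAV2-GFP replicate 3 again the highest of its group. *Gramd3* had 56.4 and 47.0 CPM in AAV2-Cre and 18.9, 16.4 and 30.4 CPM in AAV2-GFP, and was not called (log2 fold change 1.24, adjusted p = 0.0666 by edgeR). *Nxn*, *Rnf213*, *Pgghg* and *Irgm2* were not called in that comparison either, and *Nxn* was low in adults, at 0.770 to 2.57 CPM. The points share their libraries and depth and fall into groups, so these values only rank genes. Against the mean of the other members, *Gbp6* had an r of 0.971 and *Gbp3* of 0.967, *Gbp4* had 0.895, and *Gbp8* (0.705) and *Gbp11* (0.518), which have few counts in development, were least like the rest.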

How the data were processed

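The deposited values are whole counts, not normalized, for 52550 genes. To make them the authors checked read quality (FastQC 0.11.9), trimmed (Trimmomatic 0.39), mapped to GRCm38 (HISAT2 2.2.1) and counted with featureCounts of Subread 2.0.3. The strand setting and the treatment of multi-mapped reads are not given in the sources used here. Symbols came from the gene ID (52403 matched, 147 did not).

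The adult (5) and development (8) libraries were fitted separately with edgeR 4.0.16 in R 4.3.3 (TMM scaling, filterByExpr, glmQLFit, glmQLFTest), with Benjamini-Hochberg adjustment over all genes tested and a threshold of 0.05. The SE is the log2 fold change divided by the square root of its F. The biological coefficient of variation was 0.340 in adults and 0.109 in development. CPM used TMM within a dataset, and levels per kb used the union of exons in GENCODE M21. Alternatives were DESeq2 1.42.0, other scalings, filters, fits and limits, a replicate block and leaving out each library. The fit was tested on simulated data. Replicates differed beyond sampling noise.

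The members and lists were chosen with earlier results of these data known. Named are the 10 members, *Gbp2b*, *Kdm6a*, genes of the ligand, receptor, kinase, factor, atlastin and prenylation lists, the 4 genes with the smallest p in AAV2-Cre against AAV2-GFP of each other list, and the 8 genes most like the family among those whose log2 CPM averaged 1 or more. One gene of the factor list is not reported here by name.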

Additional observations from a re-analysis of the deposited data

How the results depend on the processing

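No fold change of a member that was called, and no median, changed sign under any alternative run. For AAV2-Cre against AAV2-GFP, members called higher were 8, and 6 to 9 under the settings other than leaving out a library; leaving out each library gave 0 to 9. Their median log2 fold change of 1.57 was 1.91 with the replicate block and 1.36 to 1.92 with a library left out. In adults that block sets AAV2-GFP replicate 3 aside, as no AAV2-Cre library has its number. Genes of the pathway lists called were 36, but 58 by DESeq2, 62 with no low-count filter, 64 with all 13 libraries in 1 fit, and 1 to 47 with a library left out. For P14 against P1, 7 members were called higher, but 4 with at least 10 counts in every library, when only 4 were tested, and 7 to 8 with a library left out. For P21 against P14, 4 were called higher, but 2 with no scaling beyond library size, 2 with at least 10 counts in every library, 0 with all 13 libraries in 1 fit, 0 with the replicate block, 1 with a log2 fold change beyond 1 also required, and 0 to 4 with a library left out; pathway genes called were 32, but 17 with that fold limit. Apart from the fits with fewer genes or samples, the cause was not tested. Of single members' fold changes, 60 lost and 7 gained their call over all alternatives, and 312 kept their side of the threshold.

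The replicate numbers did not pair the libraries: deviations of same-numbered libraries had correlations of -0.035 to 0.013. The block gave 9 members called higher in AAV2-Cre against AAV2-GFP (8 without it) and 7 in P14 against P1 (7 without it). In adults, AAV2-GFP replicate 3 is alone in its block and adds nothing to the comparison. There the block is therefore no check apart from the fit without that library. Depth limits *Gbp8*, *Gbp10* and *Gbp11* in development, where libraries held from 0 to 45 counts of each.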
